A study of Mus musculus with 17 samples.

Results

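The genes described here encode the proteins of the cytosolic ribosome. They were picked by symbol, as every gene named Rpl or Rps with a number, together with Rplp0, Rplp1, Rplp2 and Rpsa, and the rule used no measured value. It found 85 of the 23980 genes listed. Of these, 77 were core ribosomal protein genes, 46 of the large subunit and 31 of the small subunit, and 8 were paralogues set apart from them (Rpl3l, Rpl7l1, Rpl10l, Rpl22l1, Rpl36al, Rpl39l, Rps4l and Rps27l). Poly(A)-selected RNA from C57BL6/J mice was sequenced in 17 libraries to follow what loss of Pld6, a mitochondrial protein needed to make piRNAs, and of Dnmt3L, a cofactor of de novo DNA methylation, does to male germ cells. The 6 libraries of leptotene/zygotene (L/Z) spermatocytes came from FACS-purified cells of mice at 3 to 4 weeks, with 2 for each genotype: Pld6 KO, Dnmt3L KO and wild type (WT). The 11 newborn (P0) libraries came from whole testes at day 0, with 2 of WT, 4 of Pld6 KO, 2 of Dnmt3L KO and 3 of mice lacking both genes (DKO). The KO alleles are not limited to germ cells, L/Z cells of either KO do not go on to later meiosis, and a P0 testis holds prospermatogonia among many somatic cells, so that fewer cells of a type and less RNA per cell cannot be told apart in the values below.

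A ribosome holds a single copy of nearly every core protein, so most of these genes are among the most strongly transcribed of any cell. Their mRNAs typically begin with a C followed by a run of pyrimidines, the 5′ terminal oligopyrimidine (TOP) tract through which growth signals set their translation. Some core genes lie on the X chromosome, which is silenced during male meiosis, and several of these have autosomal retrogene copies that are active in germ cells. Rpl10l stands in for the X-linked Rpl10 in meiosis, and Rpl39l for the X-linked Rpl39, whose proteins sit near the ribosome's tunnel and active site. Ribosomal protein genes have also left many processed copies across the genome, and short reads can be hard to divide between a gene and its copy.

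The coding sequences show how far each germ-cell gene can be told from its parent by a read. Rpl10l matched Rpl10 at 547 of 645 aligned coding bases (84.8% identity), and Rpl39l matched Rpl39 at 133 of 156 (85.3%). The first 60 coding bases of each pair are shown, from GENCODE transcripts of GRCm38, with the bases that differ within the pair in capitals, 9 in the first pair and 4 in the second.
Rpl10: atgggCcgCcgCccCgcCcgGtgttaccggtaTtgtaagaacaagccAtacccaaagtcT
Rpl10l: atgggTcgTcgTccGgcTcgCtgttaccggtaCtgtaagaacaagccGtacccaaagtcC
Rpl39: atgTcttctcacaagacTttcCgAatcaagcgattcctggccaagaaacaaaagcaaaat
Rpl39l: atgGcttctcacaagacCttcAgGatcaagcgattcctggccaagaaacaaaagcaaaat

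A different case is a core gene whose copy is almost the same throughout. Rps27, on chromosome 3, and the intronless Rps27rt, on chromosome 9 from 114982366 to 114982739 (mm10), were identical at all 255 coding bases. Rpl26, on chromosome 11, and the pseudogene Gm15772, on chromosome 5 from 3236390 to 3236928, matched at 436 of 438 coding bases (99.5%). A separate alignment of transcripts of Rpl26 and Gm15772 gave 98.2% identity over 438 bases, and the difference was not resolved. Coding bases 1 to 60 are given for the first pair, with no difference, and 118 to 177 for the second, with 1 difference in capitals.
Rps27: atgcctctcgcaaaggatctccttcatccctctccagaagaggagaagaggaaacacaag
Rps27rt: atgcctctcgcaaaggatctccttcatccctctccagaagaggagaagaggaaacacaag
Rpl26: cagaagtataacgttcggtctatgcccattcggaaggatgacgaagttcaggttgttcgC
Gm15772: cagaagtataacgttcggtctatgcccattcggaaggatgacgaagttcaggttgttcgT

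The start sites were read for the TOP tract, as a C followed by 4 bases that are each C or T, on the gene's own strand only. RefSeq start windows (GRCm38.p6) were found for 64 of the 85 genes. The tract stood exactly at an annotated start in 13 of them (20.3%), against 3.01% of 27025 genes of the table, and began within 5 bases of a start in 45.3%, against 21.2%. The windows below hold 15 bases before the annotated start and 15 from it, with the first 5 transcribed bases in capitals. They are given for a pair of core genes with the tract. Also shown are 2 X-linked parents and their retrogenes, where it was not at the annotated start. Of these parents and retrogenes, only Rpl39 has it within 5 bases of the start.
Rpl38 (chr11:114668565-114668594, + strand): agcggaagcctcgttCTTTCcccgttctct
Rps27 (chr3:90213634-90213663, - strand): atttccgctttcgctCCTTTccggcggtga
Rpl10 (chrX:74270801-74270830, + strand): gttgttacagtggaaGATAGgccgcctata
Rpl10l (chr12:66284387-66284416, - strand): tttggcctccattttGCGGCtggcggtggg
Rpl39 (chrX:37085208-37085237, - strand): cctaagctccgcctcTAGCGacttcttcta
Rpl39l (chr16:10170213-10170242, + strand): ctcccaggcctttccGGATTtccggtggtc

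Sequencing depth was 5194238 to 14578341 fragments assigned to genes at L/Z and 9900346 to 23498968 at P0. At L/Z, 8.27% of fragments in WT replicate 1 and 8.06% in replicate 1 of Pld6 KO were of the ribosomal RNA precursor Rn45s, with less than 1% in the other 4 libraries. At P0 they reached 4.43% in DKO replicate 1. They were at 0% in all 4 Pld6 KO libraries, against 0.104% or more in every library of the other genotypes. The cause of this difference was not tested. Pld6 was at 0 FPKM (fragments per kilobase of transcript, scaled to library size) in both Pld6 KO libraries at L/Z against 19.0 and 19.5 in WT, and Dnmt3l was at 0 in both Dnmt3L KO libraries against 1.09 and 0.637. At P0, Pld6 stood at no more than 0.147 FPKM in the Pld6 KO and DKO libraries against 2.95 and 2.08 in WT, and Dnmt3l at no more than 0.112 in the Dnmt3L KO and DKO libraries against 2.91 and 3.98. In L/Z cells the 10 L/Z markers, each above 1 FPKM in at least 1 library of every genotype, summed to 929 and 1790 FPKM (WT), 1190 and 1980 (Pld6 KO), and 3730 and 3350 (Dnmt3L KO). The 9 markers of pachytene and later cells summed to 21.9 and 36.5, 9.63 and 15.7, and 13.8 and 9.14 in the same libraries. At P0 the same 9 markers summed to 36.1 in Pld6 KO replicate 1 and 62.1 in Dnmt3L KO replicate 1, and to between 2.44 and 5.41 in the other libraries.

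In WT cells of both kinds, most core genes were near the top of all transcripts. Their median level was 1119 FPKM in L/Z spermatocytes and 1176 FPKM in the P0 testis, and 58 and 62 of the 77 were among the 100 highest genes of their table. Levels nevertheless ran from 8.324 to 3591 FPKM at L/Z and from 8.708 to 3639 at P0. The small subunit had the higher median, 1312 FPKM against 806.3 for the large subunit at L/Z, and 1286 against 1037 at P0. These are values per length, since the core genes have short transcripts, with a median longest transcript of 1094 bases against 3262 for all genes tested.

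The 5 highest core genes of WT L/Z cells were Rps28 at 3591 FPKM ± 273.7 (SD, n = 2, as for the other levels in this paragraph), Rplp1, an acidic protein of the stalk that calls translation factors to the ribosome, at 3324 ± 162.9, Rpl41, the smallest ribosomal protein, at 2950 ± 138.2, Rpl32 at 2407 ± 291.9 and Rps27 at 2395 ± 899.8. The libraries of Rps28 and Rplp1 overlapped, as did those of Rpl32 and Rps27, while both libraries of Rpl41, at 2852 and 3047, lay apart from those of its neighbours. At P0 the order was Rpl41 at 3639 ± 1004, Rpl23a at 3387 ± 415.2, Rpl35 at 2850 ± 348, Rps26 at 2846 ± 367.9 and Rps28 at 2735 ± 112.8, and the libraries of each overlapped those of the next. The lowest 5 at L/Z were Rps15a (100.8), Rps4x (74.72), Rpl34 (41.11), Rpl30 (29.43) and Rpl26 (8.324). At P0 they were Rps15a (81.14), Rpl26 (64.43), Rpl30 (54.4), Rplp2 (47.75) and Rps27 (8.708). Apart from Rps4x, every gene at the low end of either table has a near-identical copy that is listed as a gene of its own. At L/Z, however, Rps15a took 87.9% to 88.9% of the fragments given to it and its copy Rps15a-ps6. Its longest transcript has 5179 bases, against a median of 1094 for core genes. The part of copy and length in its low FPKM was not tested.

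**Figure D1:**
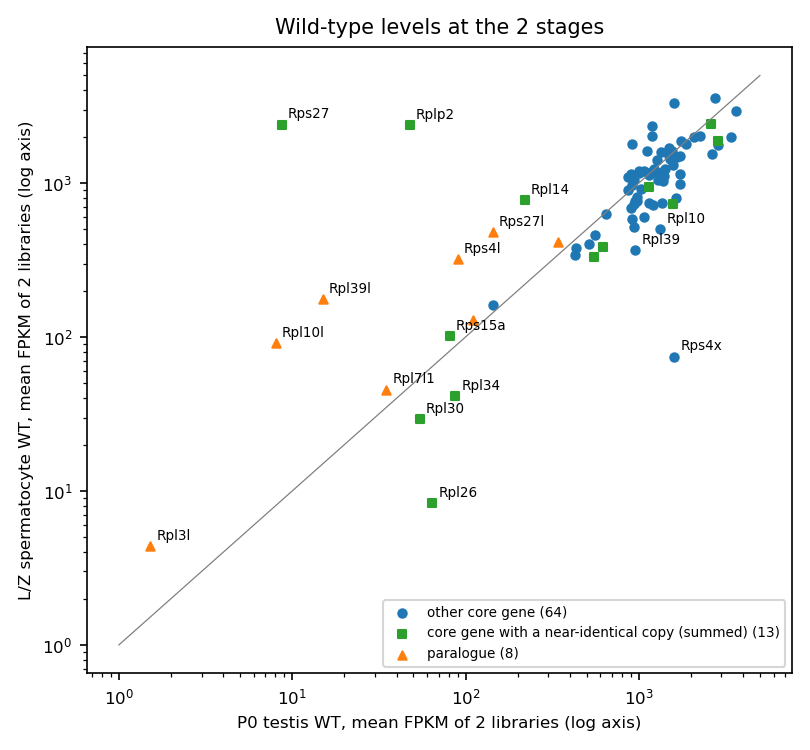
Level of the 77 core genes and 8 paralogues in WT P0 testis (horizontal) and WT L/Z spermatocytes (vertical), each a mean FPKM of 2 libraries on log axes, with a line of equal values; the tables were normalized separately. Core medians are 1119 FPKM at L/Z and 1176 at P0, while Rps27 (8.708) and Rplp2 (47.75) lie low at P0, Rps4x (74.72) low at L/Z, and the paralogues Rpl10l and Rpl39l 11.3 and 11.7 times higher at L/Z.

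The authors' counting divided fragments between these genes and their copies. For 14 members, 15 near-identical copies were listed, and the division differed between the stages and in a few cases between libraries. Matches over less than 50% of the other gene's transcript were not counted as copies or summed. Among these was Gm5148, identical to Rps23 over 427 bases. It took 6469 fragments over the L/Z libraries and 251 over the P0 libraries, against 19992 and 92232 of Rps23. Rps27, a small-subunit protein with a zinc finger, took 99.9% of the fragments of Rps27 and Rps27rt in 4 L/Z libraries, and 63.7% and 12.1% in replicates 1 of WT and Pld6 KO. Those last 2 libraries, in which Rps27rt was given 1730 and 1708 fragments against 1.78 to 4.39 in the other 4, were the 2 rich in Rn45s, and its part in the division was not tested. At P0 Rps27 took 0.278% to 4.76%, and Rps27rt the rest, in all 11 libraries. The levels given for Rps27 alone are therefore uncertain, since reads from the shared sequence could come from either gene.

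Rplp2, the second acidic stalk protein, took 89.0% to 90.0% of the fragments of Rplp2 and Rplp2-ps1 at L/Z and 5.35% to 14.2% at P0. For Rpl14 the range was 76.6% to 82.6% at L/Z and 25.3% to 34.3% at P0, and for Rps15a with Rps15a-ps6 it was 87.9% to 88.9% and 48.9% to 67.8%. In both tables Rpl26, Rpl30 and Rpl34, all of the large subunit, took the smaller part, at most 5.78%, 5.31% and 15.7%. Between the stages the division moved in the favour of the copy at P0 for Rplp2, Rpl14 and Rps15a (with Rps15a-ps6). It moved in the favour of the gene for others, as in Rpl31, from 76.9% to 79.2% at L/Z to at least 99.4% at P0, and Rpl37, from 77.3% to 81.3% to at least 91.3%. The L/Z reads were single and 50 bases long, while P0 reads were paired and 100 bases long. Stage, tissue and read type cannot be told apart here.

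**Figure D2:**
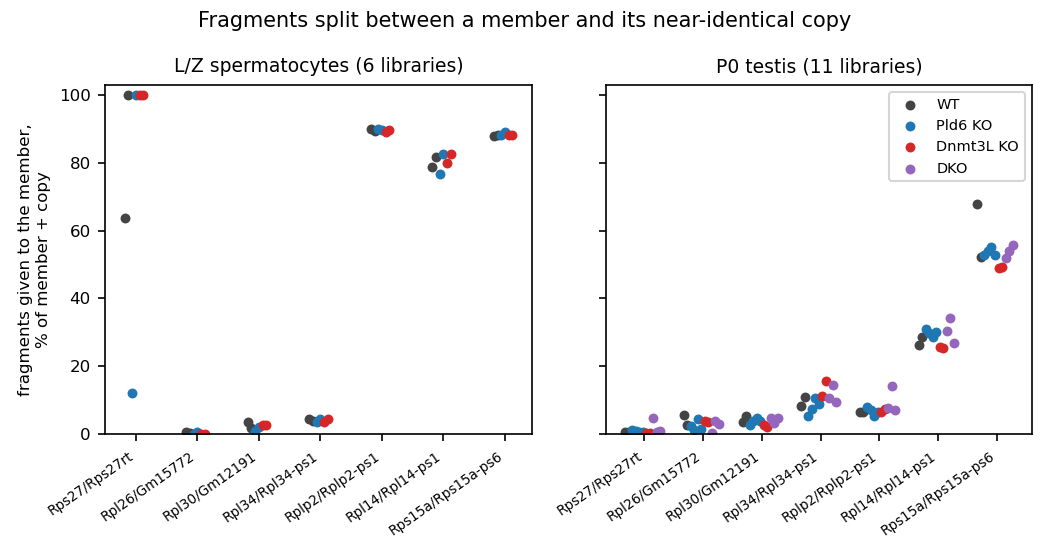
Fragments given to a core gene, as a percentage of those given to the gene and its near-identical copy together, with a point for each library, in L/Z (left) and P0 (right). Rps27 holds 99.9% in 4 L/Z libraries, 12.1% in the lowest, and at most 4.76% at P0.

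Several paralogues and their X-linked parents differed widely between the stages. In WT L/Z spermatocytes Rpl10l had 11.3 times its WT P0 level in FPKM, Rpl39l 11.7 times, Rps4l, an S4-like gene on chromosome 6, 3.57 times and Rps27l 3.35 times. The 4 X-linked core genes were lower at L/Z: Rps4x had 0.0466 times its P0 level, Rpl10 0.376, Rpl39 0.384 and Rpl36a 0.654. Of the 73 autosomal core genes 46 were also lower at L/Z, with a median ratio of 0.896 over the 73, and the only one with a ratio under that of Rpl39 was Rpl26 (0.129), which shares its fragments with a copy. The tables were normalized separately and compare a sorted germ cell with a whole organ, so these ratios are descriptions with no test. Of the core genes, 4 of 77 were X-linked, against 701 of the 16507 genes tested that have a position.

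Because it is taken within a library, the paralogue's share of the summed FPKM of paralogue and parent does not depend on that scaling. At L/Z the share of Rps4l beside Rps4x was 75.0% and 86.9% (WT replicates 1 and 2), 76.7% and 86.3% (Pld6 KO), and 89.3% and 81.5% (Dnmt3L KO), against 2.81% to 6.38% over the 11 P0 libraries. No L/Z library overlapped a P0 library. Most of the summed S4 level of L/Z cells was thus given to Rps4l in each genotype, though the identity of Rps4l to Rps4x was not computed and how well reads separate them is unknown. In the same order of libraries, Rps4x stood at 95.9, 53.6, 89.0, 37.0, 23.8 and 68.4 FPKM and Rps4l at 287, 357, 292, 232, 198 and 301 FPKM. The Pld6 KO and Dnmt3L KO values of both genes overlapped those of WT, and edgeR called neither gene in any of the 11 comparisons.

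Rpl39l held 35.6% and 29.8% of its pair at L/Z in the WT libraries, 34.1% and 30.1% in those of Pld6 KO, and 20.5% and 25.6% in those of Dnmt3L KO, both below the other 4. At P0 it held 0.603% to 2.55%. Counted in fragments, with no correction for transcript length, the share at L/Z was 44.8% to 63.5%, again lowest in the Dnmt3L KO libraries. In the same order Rpl39l was at 178, 173, 127, 124, 75.7 and 163 FPKM, and Rpl39 at 321, 408, 246, 288, 293 and 471 FPKM. Rpl39l was thus under WT in both Dnmt3L KO libraries while Rpl39 lay on either side of WT. The difference of Rpl39l did not pass the test (log2 fold change -0.54, SE 0.31, adjusted p = 0.279, edgeR's quasi-likelihood test).

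For Rpl10l the shares at L/Z were 15.2% and 15.5% (WT), 17.3% and 15.5% (Pld6 KO), and 19.8% and 17.9% (Dnmt3L KO), against 0.368% to 1.26% at P0. Its level was 83.9, 97.9, 75.7, 66.2, 79.5 and 112 FPKM in these 6 libraries, beside 469, 532, 361, 361, 323 and 512 FPKM of Rpl10. Dnmt3L KO cells thus had the highest Rpl10l shares and the lowest Rpl39l shares of the 3 genotypes, with mean Rpl39l shares of 23.1% against 32.7% in WT and 32.1% in Pld6 KO. Rpl36al, the autosomal partner of the X-linked Rpl36a, held 33.2% to 43.8% at L/Z and 18.4% to 23.5% at P0.

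The other 4 paralogues have autosomal parents. Rpl7l1 held 5.52% to 7.52% of its pair at L/Z and 1.42% to 2.77% at P0 (16.1% to 21.1% and 4.45% to 8.31% counted in fragments), and Rpl3l, a gene best known from striated muscle, stayed under 1% at both (0.357% to 0.752% and 0.023% to 0.225%). Rpl22l1, whose parent Rpl22 binds RNA beside its place in the ribosome, held much of its pair at both stages, 39.5% to 53.4% at L/Z and 34.7% to 64.6% at P0. The 2 P0 Dnmt3L KO libraries had 54.1% and 64.6%, against 41.3% and 44.9% in WT. Rps27l held 13.4% to 52.1% at L/Z and 54.7% to 96.7% at P0, where the parent's value is the part left to Rps27 after Rps27rt.

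**Figure D3:**
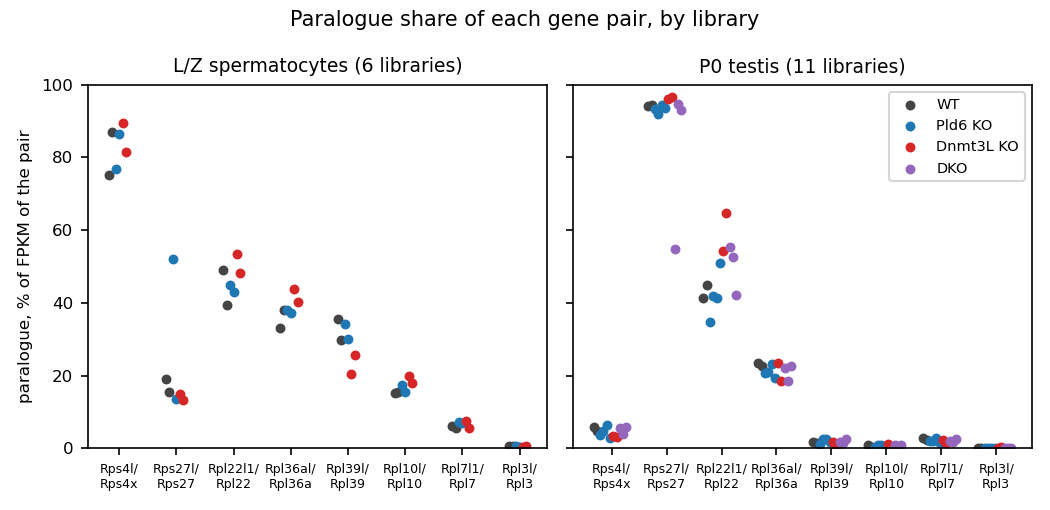
Share of each paralogue in the summed FPKM of paralogue and parent, in percent, with a point for each of the 6 L/Z and 11 P0 libraries coloured by genotype. Rps4l, Rpl39l, Rpl10l and Rpl36al, with X-linked parents, and Rpl7l1 and Rpl3l, with autosomal parents, have higher shares in every L/Z library than in any P0 library. For Rps4l these are 75.0% to 89.3% against 2.81% to 6.38%.

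Together the 85 genes took 4.31% and 4.87% of all fragments in the WT L/Z libraries, a mean of 4.59% ± 0.396 (SD, n = 2). The Pld6 KO libraries had 3.00% and 3.30% (3.15% ± 0.212, n = 2) and the Dnmt3L KO libraries 2.22% and 3.90% (3.06% ± 1.19, n = 2). All 4 KO libraries lay below both WT libraries, but Dnmt3L KO replicate 2 came close to WT. Taken over summed FPKM the groups overlapped, at 12.6% and 16.9% (WT), 9.15% and 13.5% (Pld6 KO), and 9.74% and 15.3% (Dnmt3L KO). At P0 the shares were 5.18% and 5.76% (WT), 7.15%, 5.81%, 4.83% and 7.09% (Pld6 KO), 7.90% and 7.35% (Dnmt3L KO), and 5.01%, 7.83% and 5.19% (DKO). Both Dnmt3L KO libraries exceeded both WT libraries there, while the Pld6 KO and DKO libraries lay on either side of them. Leaving Rn45s out of the total gave 4.70% and 4.89%, 3.27% and 3.30%, and 2.22% and 3.90% at L/Z, and adding the 15 copies gave 4.53% to 5.08%, 3.16% to 3.44% and 2.30% to 4.06%, with the groups in the same order. These shares get no test.

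**Figure D4:**
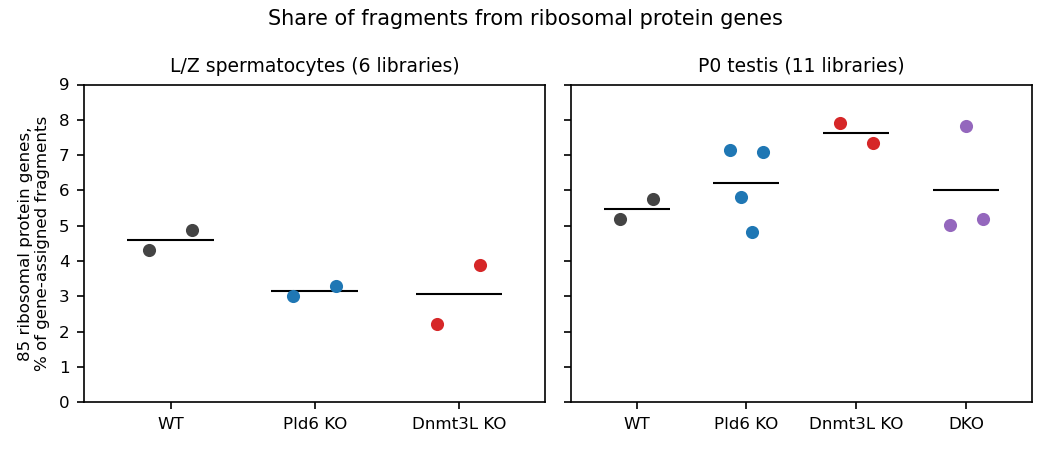
Share of all gene-assigned fragments that fell on the 85 ribosomal protein genes, in percent, with a point for each library and a line at each group's mean. The L/Z KO libraries lie between 2.22% and 3.90%, under the WT libraries at 4.31% and 4.87%, and the P0 Dnmt3L KO libraries, at 7.90% and 7.35%, lie above the WT libraries at 5.18% and 5.76%.

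In Pld6 KO L/Z spermatocytes, which lack the piRNA factor, the whole set of core genes had lower point estimates than in WT. That held for 77 of 77, and the core median was a log2 fold change of -0.54, where all 14662 genes tested had a median of 0.00. None was called. Over all 85 genes, edgeR's quasi-likelihood test called 0 at an adjusted p under 0.05, against 0.225% of all genes, DESeq2 called 0, against 0.866%, and limma on log2(FPKM + 1) called 0, against 0.0546%. At an unadjusted p under 0.05 there were 14, all of them lower (16.5% of the 85, against 9.17% of all genes in either direction). This count depended on the fit, with 5 by limma and 72 by edgeR on the WT and Pld6 KO libraries alone. The share of all genes at that threshold was not counted for these 2 fits, so neither count can be set against a background. At an adjusted p under 0.05, the fit of those libraries alone called 0 of 85, against 0.00696% of all genes. On TMM-normalized CPM (counts scaled to library size), both KO libraries lay under both WT libraries in 74 of 77 core genes (96.1%), against 21.3% of all genes. The spread of the set was narrow, with quartiles of -0.59 and -0.46, and large and small subunits had medians of -0.55 and -0.52.

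Rplp0, the stalk protein that holds Rplp1 and Rplp2, shows the usual pattern at 1425 and 1468 CPM in WT and 946 and 998 in Pld6 KO L/Z cells, a log2 fold change of -0.57 (SE 0.27, adjusted p = 0.548, edgeR). Rpl36 had 211.9 and 278.2 CPM in WT against 137.1 and 143.7, the lowest adjusted p of the set (0.333, edgeR, log2 fold change -0.80). Rps27l, known as a target of p53, had 108.5 and 144.8 CPM against 65.71 and 76.96 (log2 fold change -0.83, SE 0.24, adjusted p = 0.334, edgeR). Rpl36 was chosen after its values were seen. In all 3 genes the KO libraries lay below both WT libraries. The stalk partners Rplp1 and Rplp2 (-0.51 and -0.53), Rpsa (-0.61), a small-subunit protein also known as the laminin receptor, and the paralogues Rpl10l (-0.36) and Rpl39l (-0.48) had estimates of the same sign.

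Each group held 1 Rn45s-rich library. Between the other two, Pld6 KO replicate 2 and WT replicate 2, both under 1% Rn45s, 77 of 77 core genes were lower in the KO library, with a median of -0.57 and no replicate on either side. The pachytene markers, of which 7 of 9 were under 1 FPKM in both Pld6 KO libraries and 4 of 9 in both WT libraries, moved with the set, as did the Leydig markers, at 7.21 to 16.7 FPKM in WT and 2.44 to 3.90 in Pld6 KO. Their part in the result was not tested. When the fit took GC content and transcript length into account, the core median was -0.29.

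In Dnmt3L KO L/Z cells 74 of 77 core genes had lower estimates than WT, with a median of -0.52 against -0.04 for all genes. The test called 1 of the 85 at an adjusted p under 0.05, against 7.20% of all genes. At an unadjusted p under 0.05 there were 26 (30.6%), all lower, against 26.7% of all genes in either direction. Of all 14662 genes, 1716 were lower at that threshold. Non-overlap on CPM held for 42 of 77 core genes (54.5%), against 27.5%. DESeq2 called 12 (14.1%), against 13.4% of all genes, and limma 1, against 4.55%, so that the share called was near the background by DESeq2.

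The gene called was Rpl26, a large-subunit protein that also binds p53 mRNA, and its fragments in the 6 libraries were 40.5 and 26.6 (WT), 0 and 28.6 (Pld6 KO), and 0 and 0 (Dnmt3L KO). The edgeR test gave it an adjusted p of 0.0407. None of the 12 members called by DESeq2 had a fold over 2. The edgeR fit with GC content and length called 0 of 85, against 1.92% of all genes. Against a floor of 3 fragments in each library, Rpl26 was at least 7.0-fold lower in Dnmt3L KO than in WT. Nearly all fragments of this sequence went to Gm15772, with 7436 and 6908 in WT and 1314 and 7012 in Dnmt3L KO. Once the copies were summed with their members, the log2 fold change of Rpl26 was -0.68 with an adjusted p = 0.164 (edgeR), and 0 of 85 genes were called.

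Next in line were Rpl38, which aids translation of a subset of developmental mRNAs, and Rpl13. Rpl38 had 178 and 189 CPM in WT and 67.8 and 121 in Dnmt3L KO L/Z cells (log2 fold change -0.94, SE 0.26, adjusted p = 0.0506, edgeR). Rpl13 had 640 and 755 against 266 and 464 CPM (-0.93, SE 0.28, adjusted p = 0.0648, edgeR). For both genes the KO libraries lay under both WT libraries and differed from each other by more than the WT libraries did. The 3 core genes with estimates above 0 were Rps20 (0.31), Rpl39 (0.08) and Rps27 (0.02), and Rpl10l was the only paralogue above 0 (0.08). Rpl38, Rpl13 and Rps20 were chosen after their values were seen.

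A single library set the size of this result. Relative to the WT mean, the core median was -0.97 in Dnmt3L KO replicate 1 and -0.14 in replicate 2, where the WT libraries stood at -0.09 and 0.08. Without replicate 1 the median was -0.16 with 0 calls (against 0.00655% of all genes), without replicate 2 it was -0.97 with 22 calls (against 3.78% of all genes), and without WT replicate 1 there were 0 calls (against 0.982%). Replicate 1 was also the shallowest library, at 5194238 fragments, and its Sertoli markers summed to 61.1 FPKM against 20.2 in replicate 2 and 106 and 74.4 in WT. Leydig markers were also lower in both Dnmt3L KO libraries, at 1.76 and 2.41 FPKM against 16.7 and 7.21. Markers of L/Z cells, at 3350 to 3730 FPKM against 929 to 1790 in WT, and of prospermatogonia, at 1540 and 1630 against 894 and 1200, were higher. Their part in the result was not tested.

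Between the KO groups at L/Z the core genes had a median difference of 0.02 (Dnmt3L KO minus Pld6 KO), with 41 higher and 36 lower. The test called 0 of 85, against 0.0477% of all genes, as did DESeq2 (against 3.36%) and limma (against 0.0546%), and 3 passed an unadjusted p under 0.05 (3.53%), against 17.5% of all genes. Without Dnmt3L KO replicate 2 the median was -0.47, and without replicate 1 it was 0.34, so that the direction rested on which library was kept.

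At P0 the estimates pointed the other way. In Dnmt3L KO testes 76 of 77 core genes were higher than in WT, and the median was 0.48 on the log2 scale where all 15901 genes had 0.03. The exception was Rpl30, one of the genes divided with a copy. By edgeR 0 of the 85 were called, as were 0% of all genes. At an unadjusted p under 0.05 there were 25, all higher (29.4%, against 12.9% of all genes in either direction). Of all 15901 genes, 992 were higher at that threshold. DESeq2 called 2, against 0.730% of all genes, and limma 0. Both KO libraries lay above both WT libraries in 63 of 77 core genes (81.8%), against 25.3% of all genes. With GC content and length in the fit the core median was 0.17.

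The 2 genes that DESeq2 called were Rpl39 and its fellow large-subunit gene Rpl22l1. Rpl39 stood at 204 and 226 CPM (WT), 338, 210, 187 and 277 (Pld6 KO), 498 and 772 (Dnmt3L KO), and 275, 432 and 215 (DKO). The Dnmt3L KO libraries were the highest of the 11, 2.95-fold over WT (log2 fold change 1.56, SE 0.34, adjusted p = 0.256 by edgeR and 0.007 by DESeq2). Rpl22l1 stood at 30.7 and 37.7, then 35.6, 33.9, 27.6 and 58.0, then 84.2 and 139, then 58.3, 81.2 and 36.4 CPM in the same order. Its Dnmt3L KO libraries were again the 2 highest, 3.26-fold over WT (1.71, SE 0.38, adjusted p = 0.256 by edgeR and 0.0112 by DESeq2). Rpl22, the parent, was at 281.2 and 314.2 CPM in WT and 444.6 and 463.4 in Dnmt3L KO (0.61, SE 0.25, adjusted p = 0.347, edgeR).

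The germ-cell paralogues were low at P0 and split between the Dnmt3L KO libraries. Rpl10l had 7.902 and 6.045 CPM in WT and 20.87 and 5.64 in Dnmt3L KO, and Rpl39l 10.28 and 9.067 against 24.55 and 12.23. In both genes replicate 1 was the high one, the library in which the pachytene markers also summed to 62.1 FPKM against 3.97 in replicate 2. Blood markers summed to 1360 FPKM in replicate 1 and 371 in replicate 2, beside 454 and 868 in WT, and the share of the 85 genes was above WT in both. Sertoli markers were lower, at 988 and 798 FPKM against 1480 and 1400 in WT. Leydig markers, at 1360 and 1790 FPKM against 1030 and 1130, those of prospermatogonia, at 169 and 127 against 116 and 97.8, and those of L/Z cells, at 113 and 47.3 against 36.5 and 26.7, were higher in both libraries, as the core genes were. The part of these cell types in the result was not tested.

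Pld6 KO testes had 74 of 77 core genes higher than WT at P0, with a median of 0.22 against 0.02 for all genes. The test called 0 of 85, against 0.00629% of all genes, DESeq2 and limma called 0, against 0.0943% and 0.0189%, and 1 passed an unadjusted p under 0.05 (1.18%, against 5.06% of all genes). That gene was Rps9, with 580.3 and 534.1 CPM in WT and 897.7, 717.4, 571.3 and 889.6 in Pld6 KO (log2 fold change 0.47, SE 0.21, adjusted p = 0.963, edgeR), named after its values were seen. In none of the 77 core genes did all 4 KO libraries exceed both WT libraries (0%), against 5.84% of all genes. The 4 libraries differed from each other, with core medians of 0.48, 0.05, -0.19 and 0.43 relative to the WT mean. Blood markers summed to 2050, 563, 871 and 1690 FPKM in the same 4 libraries. The 2 with the higher ribosomal values thus also had the higher blood markers. Peritubular myoid markers (421, 325, 398 and 497 FPKM) and pachytene markers were also higher in those 2, and Sertoli markers (1050, 1200, 1170 and 1130 FPKM) lower. Leydig, prospermatogonia and L/Z markers did not sort this way, and the part of these cell types was not tested.

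DKO testes had a core median of 0.19 over WT, with 68 of 77 higher. Again 0 of 85 were called, against 0.0126% of all genes, with 0 by DESeq2 (against 0.453%) and limma (against 0.0314%), and 4 passed an unadjusted p under 0.05 (4.71%, against 7.97%). All 3 DKO libraries exceeded both WT libraries in 9 of 77 core genes (11.7%), against 15.7% of all genes. Replicate 2 decided the sign: its core median was 0.54, that of replicates 1 and 3 was -0.05 and -0.09, and without it the comparison gave -0.04. Blood markers summed to 1300 FPKM in replicate 2 and 570 and 419 in the others. Leydig, peritubular myoid and pachytene sums were also highest in replicate 2, prospermatogonia and L/Z sums lowest, and Sertoli sums between the others. Their part was not tested. Rplp2 had 16.8 and 9.74 CPM in WT and 25.1, 33.6 and 22.3 in DKO (1.02, SE 0.32, adjusted p = 0.414, edgeR), without overlap, on the small part of its fragments that did not go to Rplp2-ps1. With the copy summed, WT had 257.9 and 151.8 CPM and DKO 320.4, 236.4 and 312.1, so that the groups overlapped.

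Losing Pld6 in addition to Dnmt3L went with lower estimates than losing Dnmt3L alone, with 71 of 77 core genes lower in DKO and a median of -0.29. By edgeR 0 of 85 were called, against 0.0818% of all genes, and 11 passed an unadjusted p under 0.05 (12.9%, against 17.8%). DESeq2 called 1, against 3.95% of all genes, which was Rpl39 (log2 fold change -1.05 by edgeR, SE 0.30, adjusted p = 0.125), and limma called 0, against 0.0629%. Without DKO replicate 2 the median was -0.57, without DKO replicate 3 it was -0.16, and without Dnmt3L KO replicate 1 it was -0.18. Between DKO and Pld6 KO the median was -0.04, with 33 higher and 44 lower, and edgeR, DESeq2 and limma called 0 of 85 (0%, 0.0566% and 0% of all genes), while 2 passed an unadjusted p under 0.05 (2.35%, against 6.02%). The departure of DKO from the sum of the single KO effects had a median of -0.47 over the core genes, with 0 of 85 called by edgeR, DESeq2 and limma (0%, 0.340% and 0% of all genes), 12 at an unadjusted p under 0.05 (14.1%, against 10.9%), and -0.74 without DKO replicate 2. These comparisons share WT and KO libraries with those above.

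**Figure D5:**
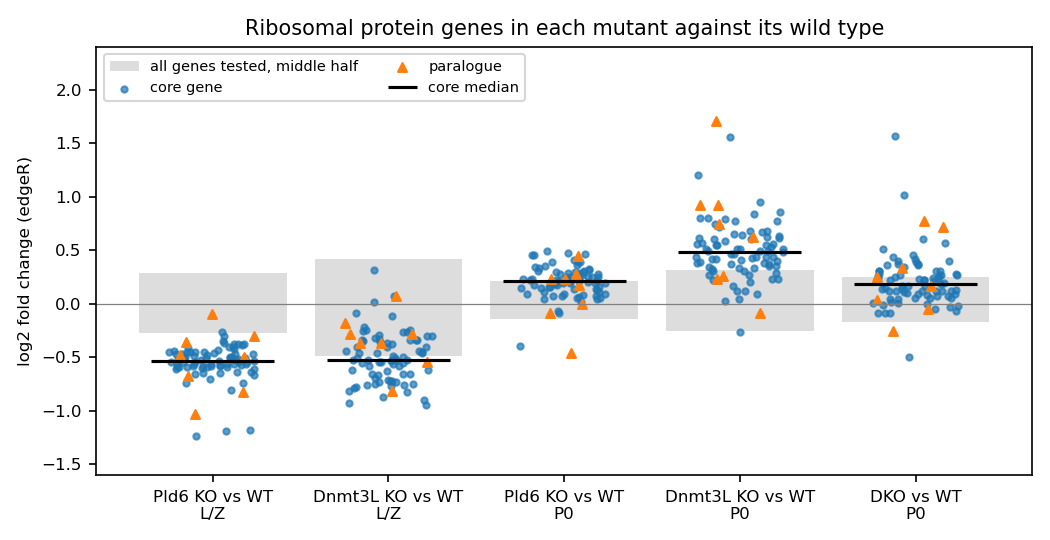
Log2 fold change (edgeR) of each core gene (circles) and paralogue (triangles) in the comparisons with WT at L/Z and P0, with a line at the core median and a grey band from the lower to the upper quartile of all genes tested. Core medians are -0.54 and -0.52 for Pld6 KO and Dnmt3L KO at L/Z and 0.22, 0.48 and 0.19 for Pld6 KO, Dnmt3L KO and DKO at P0, and Rpl26 is left out for Dnmt3L KO at L/Z since both KO libraries were at 0.

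The difference between the stages was tested directly, as the KO effect at L/Z minus that at P0 in a fit of 14 libraries. For Dnmt3L KO all 77 core genes had differences under 0, with a median of -1.01 against -0.08 for all 16547 genes. The test called 0 of 85, against 0.665% of all genes, and DESeq2 called 18, against 4.22%. At an unadjusted p under 0.05 in edgeR there were 52, all under 0 (61.2%, against 17.2% of all genes in either direction). Of all 16547 genes, 1382 were under 0 at that threshold. Rpl22l1 had a difference of -2.11 (SE 0.49, adjusted p = 0.0663, edgeR), with effects of -0.37 at L/Z and 1.71 at P0. Rpl38 had -1.62 (SE 0.40, adjusted p = 0.0753, edgeR), and Rpl39 -1.51 (SE 0.44, adjusted p = 0.11, edgeR). Without Dnmt3L KO replicate 2 of L/Z there were 31 calls (against 1.80% of all genes) and a median of -1.55, and without replicate 1 there were 0 calls (against 0.0117%) and a median of -0.61.

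For Pld6 KO all 77 differences were also under 0, with a median of -0.75 against -0.04. The test called 0 of 85, against 0.0121% of all genes, DESeq2 called 0, against 0.272%, and 22 passed an unadjusted p under 0.05 (25.9%, against 9.52%). Rps27l, at -1.09 (SE 0.41, adjusted p = 0.448, edgeR), and Rplp0, at -0.81 (SE 0.34, adjusted p = 0.484, edgeR), were among the 22, while Rps4l, at -0.24 (SE 0.30), and Rps4x, at -0.61 (SE 0.63), were not. With GC content and length in the fit the medians were -0.45 for Pld6 KO and -0.55 for Dnmt3L KO. Stage comes with tissue and read type in these libraries, which cannot be told apart.

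Core genes with the TOP tract exactly at the annotated start had medians near those of the others. Some of the others, such as Rpl12 and Rpl31, have it within 5 bases of the start. The split therefore cannot compare genes with and without a tract. The 13 with the tract had a median of -0.56 in Pld6 KO at L/Z, against -0.53 for the 44 with another start, and -0.52 against -0.53 in Dnmt3L KO. For Pld6 KO at P0 the medians were 0.23 and 0.22, and for Dnmt3L KO 0.46 and 0.51.

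The rule leaves out ribosomal proteins with other symbols, among them Fau and Gnb2l1 (Rack1). Fau encodes S30 as a fusion with a small leader protein, and Rack1 is a scaffold on the small subunit. The estimates of Fau and Gnb2l1 were -0.52 and -0.45 in Pld6 KO at L/Z, -0.70 and -0.76 in Dnmt3L KO at L/Z, and 0.48 and 0.34 in Dnmt3L KO at P0, with no call by edgeR. Both thus had the signs of the core medians in these 3 comparisons.

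Translation and mitochondrial genes give the scale. The 25 translation factors with TOP mRNAs had medians of -0.24 and -0.22 in Pld6 KO and Dnmt3L KO at L/Z, and 0.16, 0.25 and 0.09 in Pld6 KO, Dnmt3L KO and DKO at P0. The 52 genes of ribosome biogenesis and RNA polymerase I stayed near 0, at -0.06 and 0.07 and at -0.03, 0.02 and -0.10. The 74 mitochondrial ribosomal protein genes had -0.36 and -0.18, then 0.07, 0.21 and -0.06. The nuclear-encoded genes of oxidative phosphorylation had -0.56 and -0.33, then 0.12, 0.29 and 0.03. In Dnmt3L KO at L/Z 1 of 25 translation factors and 2 of 52 biogenesis genes rose (edgeR, adjusted p under 0.05), as did 772 of all 14662 genes. No gene of these 4 lists was called in the other 4 comparisons with WT. The core median lay farther from 0 than those of the other lists in each comparison with WT but Pld6 KO at L/Z, where oxidative phosphorylation genes had -0.56 against -0.54, a description with no test between the lists.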

How the data were processed

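Members and comparison lists were chosen with earlier results of these data known. The authors prepared stranded poly(A) libraries, aligned reads with TopHat2 to mm10 and ran Cuffdiff on RefSeq genes, separately for L/Z and P0. The deposited tables give estimated counts (raw fragments, not whole where reads were shared between genes) and FPKM, scaled by the authors, for each replicate. The tables number replicates from 0 and the labels from 1, and the same order was assumed, which only names libraries. The labels call the libraries biological replicates.

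Estimated counts were rounded and tested with edgeR 4.0.16 (quasi-likelihood, TMM, filterByExpr), all groups of a stage in 1 fit, with Benjamini-Hochberg adjustment over all genes and a threshold of 0.05. The differences between stages used 14 libraries. FPKM served for levels and pair shares. Alternatives used DESeq2 1.42.0 and limma 3.58.1 on log2(FPKM + 1). Fits were tested on simulated data. Copies had at least 95% identity over 150 bases and 50% of their transcript, or were named as pseudogenes of the member. Named genes were the paralogues and parents, Rplp0, Rplp1, Rplp2, Rpsa, the 5 highest and 5 lowest core genes of each WT, called members (up to 4 each way), Fau and Gnb2l1, and a further gene is not reported here. Others are marked as chosen later, and the genes shown for their copies or start sequences were chosen for these.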

Additional observations from a re-analysis of the deposited data

How the results depend on the processing

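Over the 11 comparisons, the number of calls stayed within 1.5 times that reported in 148 pairs of comparison and alternative, was higher in 16 and lower in 4. Those that moved are given next. For Dnmt3L KO against WT at L/Z, the 1 call (against 7.2% of all genes) became 2 with DESeq2's size factors (against 7.36%). It became 3 without the filter on low counts (against 7.04%) and 12 with DESeq2 (against 13.4%). The GC and length offset gave 0 (against 1.92%), and a term for the Rn45s-rich libraries gave 2 (against 5.91%). The compared groups alone gave 2 (against 7.76%). Summing the copies, which was chosen after seeing the data, gave 0 (against 7.3%). Leaving out a library gave 0 to 22 calls there, 0 to 1 for Pld6 KO against WT and for Dnmt3L KO against Pld6 KO at L/Z, and 0 to 31 for the stage difference of Dnmt3L KO, which had 2 calls without the filter and 18 with DESeq2. Of all genes, that stage difference had 0.732% called without the filter and 4.22% with DESeq2. DESeq2 called 2 for Dnmt3L KO against WT (against 0.730% of all genes) and 1 for DKO against Dnmt3L KO (against 3.95%) at P0. The core median kept its sign under every alternative but 6 for Dnmt3L KO against Pld6 KO at L/Z, 5 for DKO against Pld6 KO and 1 for DKO against WT. Taken over summed FPKM, the shares were 14.8%, 11.3% and 12.5% in WT, Pld6 KO and Dnmt3L KO at L/Z, and 16.3%, 17.9%, 22.8% and 16.3% in WT, Pld6 KO, Dnmt3L KO and DKO at P0. Counted in fragments in place of FPKM, the share of Rpl39l at L/Z had a range of 44.8% to 63.5% in place of 20.5% to 35.6%, and that of Rpl22l1 8.42% to 13.9% in place of 39.5% to 53.4%. In all, 7 of the 16 mean shares of a paralogue at a stage moved beyond the spread between libraries, the others being Rpl22l1 at P0 (12.8%), Rpl39l at P0 (4.72%), Rpl10l at L/Z (21.9%) and Rpl7l1 at L/Z (18.6%) and P0 (6.40%). The causes were not tested.

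Same-numbered libraries did not deviate together in every pair, so the numbers were not taken as pairing. The correlation of deviations was 0.485 between WT and Pld6 KO at L/Z, where replicates 1 are the Rn45s-rich libraries. There a replicate block gave 0 calls (against 0.164% of all genes), with 36 members at an unadjusted p under 0.05 in place of 14. The share of all genes at that unadjusted threshold was not counted for the block, so the 36 cannot be set against a background. For Dnmt3L KO against WT at L/Z, the replicate block gave 3 calls (against 9.3% of all genes) and a crossed replicate block 10 (against 16.1%). There the correlation of deviations was -0.144. With 2 libraries in most groups, leaving out 1 leaves a lone library that is assumed to vary like the others, and genes under about 30 fragments, such as Rpl26 at L/Z, rest on few reads.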
